A study of Mus musculus with 74 samples.

Results

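Expression of 10 germ line genes in the mouse fetal gonad was followed through the day in which the gonad becomes a testis or an ovary: Dazl, Ddx4, Piwil2, Mov10l1, Mael, Rec8, Sycp3, Stra8, Dnd1 and Tex19.2. The members were all probes that carry 1 of these 10 gene symbols, and 12 of the 25697 probes on the array did, with 3 probes for Ddx4 and 1 for every other gene. Total RNA of single pairs of gonads, dissected away from the mesonephroi, was hybridised to Illumina MouseRef-8 v2.0 BeadChips. The 74 arrays covered embryos of 2 inbred strains, 129S1/SvImJ (129S1) and C57BL/6J (B6), in XX and XY gonads at 6 stages from E11.0 to E12.0 that lay 4.8 hours apart. Of the 24 groups, 21 held 3 arrays, 129S1 XY E11.0 held 5, B6 XY E11.2 held 4 and 129S1 XY E12.0 held 2. The labels name no treatment and no engineered allele in any group. The labels do not give the litter of an embryo, so p-values measure the spread between these pairs of gonads.

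Primordial germ cells enter the genital ridge shortly before this window and are a minority of the cells in it. There they begin to switch on a germ line programme of RNA-binding proteins, piRNA factors, which silence transposons through small RNAs bound to PIWI proteins, and the first components of meiotic chromosomes. In XX gonads germ cells enter meiosis after the window closes, under the control of Stra8, while in XY gonads they arrest in mitosis. All values were measured on whole gonads. Germ cell number, RNA per germ cell and RNA from other gonad cells therefore cannot be told apart.

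Every array matched its labelled sex on Xist and Eif2s3y, whose ranges in XX and XY gonads did not overlap. All 9 supporting cell markers listed for the gonad, and 11 of 13 genes of a primordial germ cell (PGC) reference list, had a mean level above background. Background was set at 7.33 on the deposited log2 scale, the 95th percentile of 1143 olfactory receptor probes, which gonads should not express. No 2 arrays held identical values. The number of arrays, and not a read depth, limits the precision of every value. Near background the log2 scale is compressed, so that fold changes of dim probes are understated.

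Over all 74 arrays, 6 member genes had a mean above background. The Dnd1 probe had a mean deposited level of 9.60 and a range of 8.45 to 11.03, and was above background on all 74 arrays. Rec8 averaged 8.60 and was above background on 72 arrays, and Dazl averaged 8.09 and was above it on 60. Piwil2 averaged 7.71 (71 arrays above background), Tex19.2 averaged 7.53 (53 arrays) and Mov10l1 averaged 7.44 (45 arrays). Levels of different probes depend on the probe as well as on the RNA, so that the genes are not ranked by level. Mael, Sycp3, Stra8 and the 3 Ddx4 probes had means of 7.03 to 7.25, below the background level. Mael and the dimmest Ddx4 probe passed it on 0 of 74 arrays, Sycp3 on 1, Stra8 on 2 and the other Ddx4 probes on 15 and 14. At this sensitivity a change in those genes was detectable only if it lifted them out of background.

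Promoter sequences are shown for 8 of the genes, so that members with a mean level above background (Dazl, Mov10l1, Rec8, Tex19.2) can be set beside those with a mean below it (Ddx4, Mael, Sycp3, Stra8). They were taken from RefSeq's GRCm38.p6 annotation, each running from 250 bases before to 50 bases after the start of the gene, and these 8 of the 10 members matched an entry. Their positions were Dazl chr17:50293571-50293870 on the minus strand, Mov10l1 chr15:88982744-88983043 on the plus strand, Rec8 chr14:55617916-55618215 on the plus strand, Tex19.2 chr11:121118628-121118927 on the minus strand, Ddx4 chr13:112652261-112652560 on the minus strand, Mael chr1:166238695-166238994 on the minus strand, Sycp3 chr10:88459337-88459636 on the plus strand and Stra8 chr6:34920698-34920997 on the plus strand. Capitals mark CACGTG, the E-box letters bound by MAX-containing complexes, and TCCCGC or its reverse complement GCGGGA, the letters bound by E2F factors. Both kinds of complex are known to hold germ line genes silent in other cells.

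Dazl: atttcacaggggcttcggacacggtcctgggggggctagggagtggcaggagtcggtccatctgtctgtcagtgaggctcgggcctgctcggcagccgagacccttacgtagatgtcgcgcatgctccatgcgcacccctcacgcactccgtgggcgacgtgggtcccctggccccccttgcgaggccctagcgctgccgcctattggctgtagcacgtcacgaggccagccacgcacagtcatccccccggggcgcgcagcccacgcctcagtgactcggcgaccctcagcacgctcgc
Mov10l1: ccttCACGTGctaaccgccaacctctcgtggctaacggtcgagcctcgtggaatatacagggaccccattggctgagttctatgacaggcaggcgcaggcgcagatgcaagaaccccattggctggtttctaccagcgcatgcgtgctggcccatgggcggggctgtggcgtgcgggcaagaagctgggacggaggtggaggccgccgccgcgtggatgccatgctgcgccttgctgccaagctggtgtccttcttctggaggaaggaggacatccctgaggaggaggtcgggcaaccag
Rec8: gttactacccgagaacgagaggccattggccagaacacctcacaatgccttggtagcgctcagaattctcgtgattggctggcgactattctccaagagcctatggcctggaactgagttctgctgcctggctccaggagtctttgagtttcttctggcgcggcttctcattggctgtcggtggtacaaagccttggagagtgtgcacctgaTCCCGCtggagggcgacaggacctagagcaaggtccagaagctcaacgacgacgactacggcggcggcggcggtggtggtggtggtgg
Tex19.2: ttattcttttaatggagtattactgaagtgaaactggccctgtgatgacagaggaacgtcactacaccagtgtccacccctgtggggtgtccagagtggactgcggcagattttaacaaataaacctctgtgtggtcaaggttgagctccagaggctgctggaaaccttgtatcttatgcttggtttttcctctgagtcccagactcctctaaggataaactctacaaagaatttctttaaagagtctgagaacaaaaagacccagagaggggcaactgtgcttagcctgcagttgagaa
Ddx4: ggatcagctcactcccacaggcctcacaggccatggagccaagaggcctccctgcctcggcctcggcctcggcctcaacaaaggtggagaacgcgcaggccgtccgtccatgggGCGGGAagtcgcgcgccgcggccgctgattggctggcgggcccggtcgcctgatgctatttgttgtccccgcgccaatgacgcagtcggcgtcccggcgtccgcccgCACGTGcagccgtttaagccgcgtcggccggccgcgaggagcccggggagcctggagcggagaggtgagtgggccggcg
Mael: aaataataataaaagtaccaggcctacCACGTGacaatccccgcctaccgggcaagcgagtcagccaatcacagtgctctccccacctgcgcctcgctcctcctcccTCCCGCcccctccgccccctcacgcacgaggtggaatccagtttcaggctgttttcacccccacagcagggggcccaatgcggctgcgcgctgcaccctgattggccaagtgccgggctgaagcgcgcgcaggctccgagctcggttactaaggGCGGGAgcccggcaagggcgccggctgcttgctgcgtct
Sycp3: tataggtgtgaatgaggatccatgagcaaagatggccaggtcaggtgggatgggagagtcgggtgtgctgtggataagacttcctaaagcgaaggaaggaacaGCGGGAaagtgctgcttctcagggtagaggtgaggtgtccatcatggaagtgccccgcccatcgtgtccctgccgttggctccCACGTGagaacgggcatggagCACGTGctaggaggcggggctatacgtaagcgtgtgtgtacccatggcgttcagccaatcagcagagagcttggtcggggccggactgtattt
Stra8: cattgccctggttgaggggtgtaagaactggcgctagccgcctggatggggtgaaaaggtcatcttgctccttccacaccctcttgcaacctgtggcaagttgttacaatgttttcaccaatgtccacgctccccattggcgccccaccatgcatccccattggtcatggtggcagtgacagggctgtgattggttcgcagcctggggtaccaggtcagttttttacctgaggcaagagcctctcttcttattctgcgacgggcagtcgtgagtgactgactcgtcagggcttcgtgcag

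Of the 32851 promoters of this length, 7.15% held CACGTG and 20% held TCCCGC on either strand, and the E-box was chosen for the search after the sequences had been seen. Ddx4, Mael and Sycp3 each held both letter sets, with 2 E-boxes in Sycp3 and 2 E2F sites in Mael. The promoter of Stra8, the other member with a mean below background, held neither. Of the members above it, Mov10l1 held an E-box and no E2F site, Rec8 held an E2F site and no E-box, and Dazl and Tex19.2 held neither. The letters CCAAT were also searched, on either strand, and are not marked. They were found in 7 of the 8 promoters, all but that of Tex19.2, against 37.4% of all promoters. They therefore did not separate the members above background from those below it. The Dazl, Mov10l1, Rec8 and Tex19.2 promoters held 28, 20, 18 and 2 CpG dinucleotides, against a median of 7 over all promoters. Those of Ddx4, Mael, Sycp3 and Stra8 held 38, 24, 15 and 10, so that Tex19.2 alone fell below that median. The E-box and E2F letters each contain a CpG, so their shares among all promoters are not a like background for these promoters. Their shares among promoters of similar CpG content were not tested. The matches describe the windows shown and are no evidence of binding.

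From E11.0 to E12.0, 6 of the 10 member genes rose in XX gonads and none fell, each gene being read at its brightest probe. The genes were Dazl, Piwil2, Mov10l1, Rec8, Dnd1 and Tex19.2, and a Ddx4 probe that was not the brightest also passed the test. Over all 25697 probes, 2.78% rose in XX gonads, and 4.68% of the 14049 probes above background did. In XY gonads 4 members rose, Dazl, Piwil2, Mov10l1 and Tex19.2, against 3.42% of all probes and 5.8% of probes above background, and Rec8 fell, as did 4.11% of all probes. The median change over the 10 genes was 0.50 in XX and 0.15 in XY gonads on the log2 scale, beside a median near 0 over all probes. The stage term passed the test for 5 of the 10 genes, against 10.5% of all probes, and Rec8 was the riser that it left out (adjusted p = 0.957), since its changes in XX and XY gonads had opposite signs.

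Dazl, an RNA-binding protein needed for germ cells to become competent for gametogenesis, showed the largest fitted rise of the members in both sexes, averaged over the strains. In 129S1 XX gonads its deposited log2 values were 8.07, 7.69 and 7.88 at E11.0 and 9.72, 9.40 and 10.68 at E12.0. In 129S1 XY gonads they were 7.50, 7.78, 7.78, 7.35 and 8.24 at E11.0 and 9.81 and 9.21 at E12.0. In both sexes of this strain the E12.0 arrays all lay above the E11.0 arrays. B6 gonads began at background, with 7.31, 7.22 and 7.36 in XX and 7.19, 7.11 and 7.38 in XY at E11.0. At E12.0 they reached 8.53, 7.82 and 8.32 in XX and 7.55, 8.16 and 8.38 in XY. Again no E12.0 array overlapped the E11.0 arrays of its group.

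Averaged over the strains, the Dazl rise was 1.49 ± 0.18 in XX gonads (log2 difference ± SE, 2.81-fold, adjusted p = 2.2e-08) and 1.29 ± 0.19 in XY gonads (adjusted p = 5.0e-07). The difference between these changes was -0.20, with a 95% interval of -0.73 to 0.32 (adjusted p = 0.957), and XY minus XX passed the test at none of the 6 stages. By strain the rise was 2.05 ± 0.26 in 129S1 XX gonads, 1.78 ± 0.27 in 129S1 XY gonads and 0.93 ± 0.26 in B6 XX gonads. The value in B6 XY gonads, 0.80 ± 0.26, did not pass the test (adjusted p = 0.101), but did without B6 XY E12.0 replicate 1 (1.04, adjusted p = 0.0288). The B6 XX value no longer passed it without any of 5 arrays, all 3 of B6 XX E11.0 and replicates 1 and 3 of B6 XX E12.0, with values of 0.77 to 0.96. The rises over both strains and those within 129S1 passed the test in all 74 fits that left out 1 array.

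**Figure D1:**
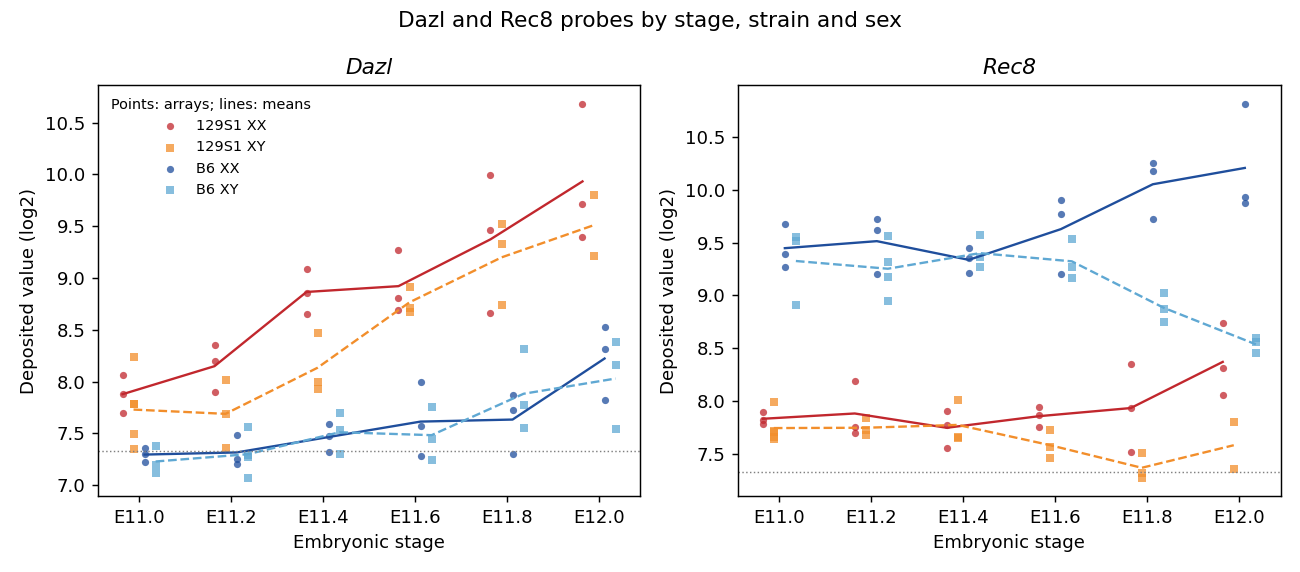
Deposited log2 values of the Dazl probe (left) and the Rec8 probe (right) against embryonic stage. Each point is 1 array, lines join group means and the dotted line is the background level of 7.33. Mean Dazl values end higher than they begin in all 4 groups. The B6 XY rise and the strain difference at E11.0 did not pass the test. Rec8 is higher in B6 throughout and parts by sex at E11.8 and E12.0.

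The Dazl probe gave higher values in 129S1 than in B6 gonads through most of the window. It is the only probe of the gene, so a difference in RNA level and a difference between the strains in binding to the probe cannot be told apart. All 37 129S1 arrays were above background, with a lowest value of 7.35, a median of 8.66 and a highest of 10.68. Of the 37 B6 arrays 23 were above it, with a lowest value of 7.07, a median of 7.49 and a highest of 8.53. The 129S1 arrays all lay above the B6 arrays in 10 of the 12 combinations of sex and stage, the exceptions being XY gonads at E11.0 and E11.2. Over all stages the difference was 1.10 ± 0.07 (adjusted p = 1.3e-18), and it was found within XX (1.26 ± 0.11) and within XY gonads (0.93 ± 0.11). By stage it was 0.54 at E11.0, where it did not pass the test (adjusted p = 0.0644), then 0.61, 1.01, 1.29, 1.53 and 1.59 from E11.2 to E12.0. The E11.2 value was lost in 7 of the 74 fits without 1 array and the E11.0 value was gained in 4, while those from E11.4 on passed in all of them.

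Whether the rise itself was larger in 129S1 depended on the model. Between E11.0 and E12.0 the changes differed by 1.05 ± 0.26, which did not pass the test (adjusted p = 0.0961), and no member and only 0.117% of all probes differed in this way. With a linear trend over all 6 stages the strains differed by 1.18 (adjusted p = 0.00154), and without 129S1 XX E12.0 replicate 2 the E11.0 to E12.0 changes differed by 1.19 (adjusted p = 0.0353). The E11.0 values of B6 lie at background, so that a rise below that level would be missing from the B6 change.

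Among the piRNA genes, Piwil2, a PIWI protein that binds piRNAs, rose in XX gonads by 0.64 ± 0.12 (adjusted p = 1.8e-04). Its B6 XX values were 7.39, 7.42 and 7.67 at E11.0 and 8.72, 7.99 and 7.98 at E12.0, without overlap. In 129S1 XX gonads they were 7.46, 7.28 and 7.35 and then 7.78, 7.65 and 8.27, also without overlap, but this change of 0.54 ± 0.17 did not pass the test (adjusted p = 0.101). In XY gonads the rise of 0.37 ± 0.12 was at the threshold (adjusted p = 0.0481). It was lost when any of 39 of the 74 arrays was left out and with array weights (adjusted p = 0.0532), and in B6 XY gonads the values at E12.0 (7.52, 7.91 and 8.17) overlapped those at E11.0 (7.30, 7.42 and 7.73).

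Mov10l1, the helicase that hands piRNA precursors to PIWI proteins in the mouse testis, rose by 0.45 ± 0.08 in XX (adjusted p = 8.5e-05) and 0.34 ± 0.08 in XY gonads (adjusted p = 0.0038). Within 129S1 XY gonads the rise was 0.52 ± 0.12 (adjusted p = 0.0021), while the B6 value was 0.15 ± 0.12 (adjusted p = 0.786). These values were not shown to differ (difference 0.37, adjusted p = 0.694). Without 129S1 XY E12.0 replicate 1, whose value of 8.03 stood above the 7.57 of the other array of that group, neither the XY rise (0.22, adjusted p = 0.206) nor its 129S1 part (0.29, adjusted p = 0.521) passed the test.

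Mov10l1 was also higher in 129S1 by 0.22 ± 0.03 (adjusted p = 4.7e-07), and the strains did not overlap in 8 of 12 combinations of sex and stage. Mov10l1 was read by 1 probe, and the limit given for Dazl applies. By stage the difference passed the test at E11.6 (0.41) and E11.8 (0.32) alone. The E11.6 value passed in all 74 fits without 1 array, and the E11.8 value was lost without replicate 3 of 129S1 XX, 129S1 XY or B6 XX E11.8 or replicate 2 of B6 XY E11.8 (0.26 to 0.28). The E12.0 value of 0.25 passed without any of 3 arrays, at 0.31 to 0.36. At E11.6 the 129S1 values ran from 7.60 to 7.77 in the 2 sexes together and the B6 values from 7.18 to 7.31, all of the latter below background. Mael, a piRNA factor of germ cell granules, stayed at background in every group, and its fitted changes were 0.02 in XX and -0.01 in XY gonads.

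Dnd1, an RNA-binding protein that germ cells need to survive, had values of 9.46, 9.61 and 9.11 at E11.0 and 10.22, 9.64 and 9.97 at E12.0 in 129S1 XX gonads. In B6 XX gonads they were 8.78, 9.20 and 9.38 and then 11.03, 9.74 and 9.86. This B6 XX change of 1.09, larger than the 0.93 of Dazl, did not pass the test over all arrays. It passed in 7 of the 74 fits without 1 array. Over both strains the rise in XX gonads was 0.82 ± 0.23 (adjusted p = 0.0191), and in XY gonads the difference was 0.30 ± 0.23 (adjusted p = 0.609). These changes were not shown to differ between the sexes (difference -0.52, 95% interval -1.16 to 0.13, adjusted p = 0.726). The XX rise was lost without 129S1 XX E11.0 replicate 3, 129S1 XX E12.0 replicate 1, B6 XX E11.0 replicate 1 or B6 XX E12.0 replicate 1, with values of 0.61 to 0.75 in those fits.

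**Figure D2:**
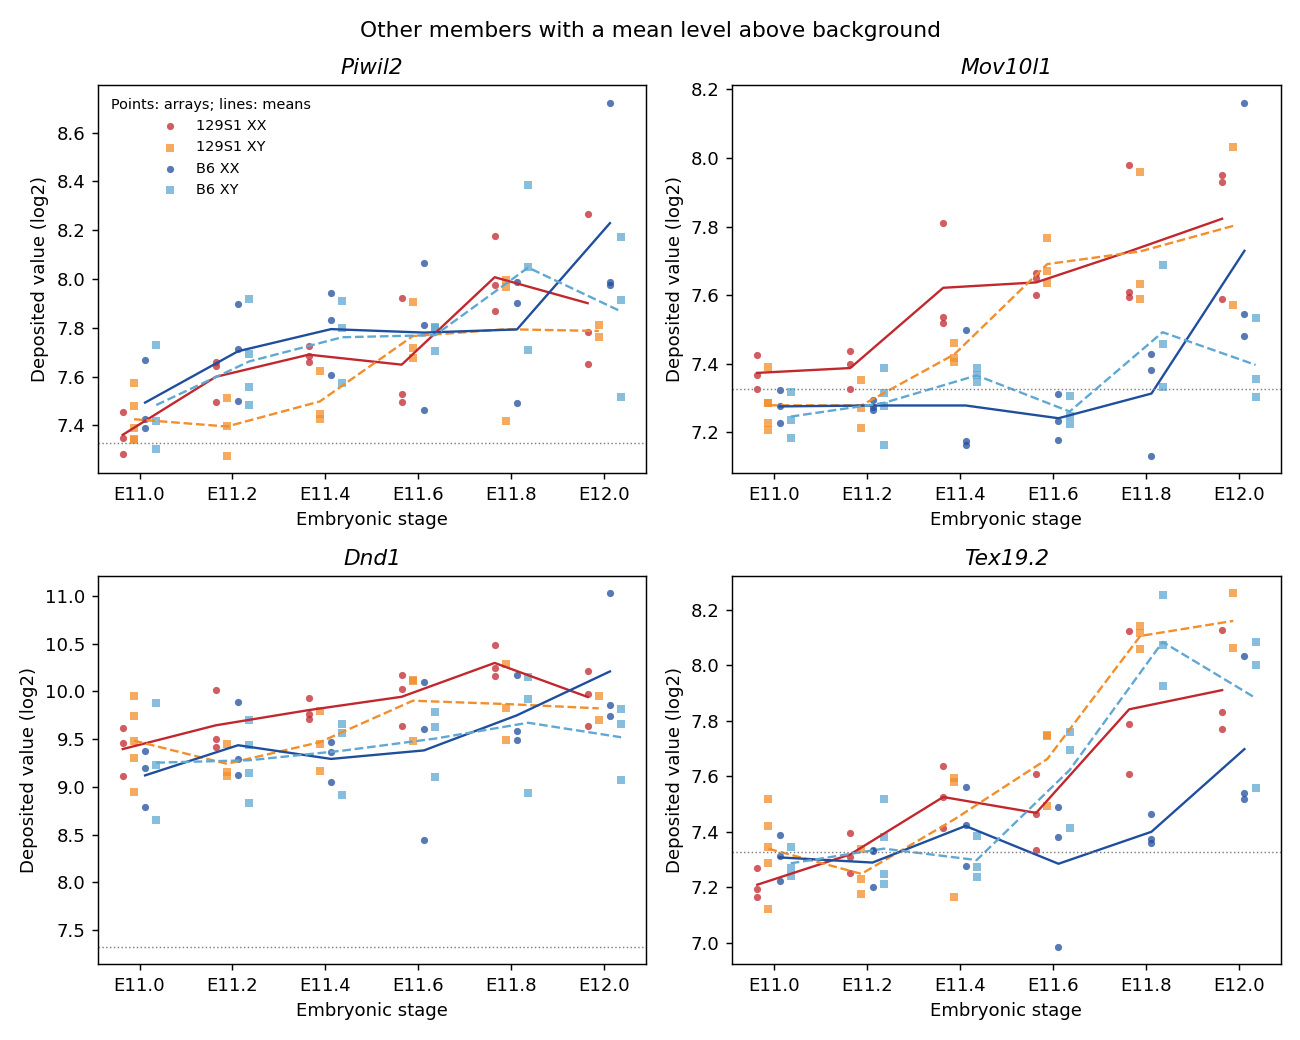
Deposited log2 values of the Piwil2, Mov10l1, Dnd1 and Tex19.2 probes against embryonic stage, on axes that differ between panels. Each point is 1 array, lines join group means and the dotted line is the background level of 7.33. Dnd1 is far above background throughout, Mov10l1 separates by strain at E11.6, and Tex19.2 steps up in XY gonads at E11.8.

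The array labelled B6 XX E12.0 replicate 1 held the highest value of its group for Dazl, Piwil2, Mov10l1, Rec8, Dnd1 and Tex19.2, and its PGC reference mean of 9.69 was the highest of all B6 XX gonads. Without it, 5 of the 6 rises in XX gonads still passed the test, and the Dnd1 rise did not. Within B6 XX gonads alone, the 4 members that passed the test were Dazl, Piwil2, Mov10l1 and Rec8, with changes of 0.93, 0.74, 0.45 and 0.76. None of the 4 did so without that array, where the changes were 0.77, 0.49, 0.24 and 0.45 (adjusted p from 0.201 to 0.421).

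Rec8, the cohesin subunit that holds sister chromatids together in meiosis, was the only member that passed the test for a rise in one sex and for a fall in the other. Its B6 XX values were 9.27, 9.68 and 9.39 at E11.0 and 10.81, 9.93 and 9.87 at E12.0. Its B6 XY values were 9.56, 8.91 and 9.51 and then 8.60, 8.56 and 8.45. By E12.0 every B6 XX array lay above its E11.0 arrays and every B6 XY array below them. In 129S1 XX gonads the values were 7.90, 7.78 and 7.82 and then 8.32, 8.06 and 8.74. In 129S1 XY gonads they were 7.71, 7.66, 7.64, 7.71 and 8.0 at E11.0 and 7.81 and 7.36 at E12.0, which overlapped.

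Over both strains Rec8 rose in XX gonads by 0.65 ± 0.14 (adjusted p = 0.00103) and fell by 0.47 ± 0.14 on the log2 scale in XY gonads (adjusted p = 0.0212). Within 129S1 XY gonads the value was -0.16 ± 0.20 (adjusted p = 0.815). Over both strains the fall was lost without 129S1 XY E12.0 replicate 2, B6 XY E11.0 replicate 1 or 3, or B6 XY E12.0 replicate 3, with values of -0.36 to -0.45 in those fits. Within B6 it was -0.79 ± 0.20 (adjusted p = 0.0109), lost without the same B6 arrays (-0.67 to -0.74). The difference between the changes of the 2 sexes was -1.12 ± 0.20 (adjusted p = 6.8e-05), and Rec8 was the only member among the 1.17% of all probes whose change was lower in XY in this way. It was -1.55 ± 0.28 in B6 gonads (adjusted p = 3.8e-04) and -0.70 ± 0.28 in 129S1 gonads (adjusted p = 0.349). These strain values were not contrasted with each other. The values over both strains and within B6 passed the test in each of the 74 fits with 1 array left out.

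The sexes differed in Rec8 from E11.8. XY minus XX lay between -0.29 and 0.05 from E11.0 to E11.6 and passed the test at none of these stages. It was -0.87 ± 0.14 at E11.8 (adjusted p = 7.9e-06) and -1.23 ± 0.15 at E12.0 (adjusted p = 3.9e-09). At E12.0 Rec8 was the only member to differ between the sexes, and 2.62% of all probes were lower in XY. Within B6 the difference was -1.17 ± 0.20 at E11.8 and -1.67 ± 0.20 at E12.0, and within 129S1 it was -0.56 ± 0.20 (adjusted p = 0.177) and -0.79 ± 0.22 (adjusted p = 0.0268). The sex difference at E12.0 was not shown to differ between the strains. The 129S1 value at E12.0 was lost without 129S1 XX E12.0 replicate 1 or 3 or 129S1 XY E12.0 replicate 2 (-0.81, -0.60 and -0.56), and the value at E11.8 passed without 129S1 XX E11.8 replicate 1 (-0.77, adjusted p = 0.043). These sex differences at E12.0 and the changes above share the E12.0 arrays.

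Rec8 was lower in 129S1 than in B6 by 1.62 ± 0.06 on the log2 scale (-1.62, 3.08-fold, adjusted p = 5.7e-32). The 129S1 arrays had a lowest value of 7.28, a median of 7.76 and a highest of 8.74, and the B6 arrays a lowest of 8.45, a median of 9.36 and a highest of 10.81. In all 12 combinations of sex and stage the 129S1 arrays lay below the B6 arrays. The difference was present at E11.0 (-1.60) and ranged from -1.81 at E11.8 to -1.39 at E12.0. It did not change detectably with stage (adjusted p = 1.00 for the stage by strain term). Rec8 was read by 1 probe, and the same limit applies as for Dazl.

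Across the members, 4 of 10 genes differed between the strains over all stages. Dazl, Mov10l1 and Tex19.2 were higher in 129S1, as were 7.85% of all probes, and Rec8 was lower, as were 7.57%. The strain term passed the test for 15.4% of all probes, so that strain differences were common on these arrays. The Tex19.2 value was 0.11 ± 0.04 (adjusted p = 0.0338) and was lost in 13 of the 74 fits without 1 array. The values of Dazl, Mov10l1 and Rec8 passed in all of them. Each of the 4 genes was read by 1 probe, so the limit given for Dazl applies to all of these strain values.

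Tex19.2, 1 of the 2 mouse genes of a mammalian family that acts in germ cells and restrains retrotransposons, began near background and rose in both sexes. In XY gonads its values at E11.6 were 7.74, 7.49 and 7.75 in 129S1 and 7.69, 7.41 and 7.76 in B6. At E11.8 they were 8.14, 8.12 and 8.06 in 129S1 and 8.25, 7.93 and 8.07 in B6, so that no array overlapped. This step of 0.45 ± 0.09 (adjusted p = 0.00338) was the only change between neighbouring stages that passed the test for any member in either sex over all arrays with equal weight. With array weights, the step from E11.8 to E12.0 in XX gonads also passed for Dazl (0.68, adjusted p = 0.033) and for the second brightest Ddx4 probe. In XX gonads the values at E11.8 were 7.61, 8.12 and 7.79 in 129S1 and 7.46, 7.36 and 7.37 in B6.

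From E11.0 to E12.0 Tex19.2 rose by 0.71 ± 0.09 in XY (adjusted p = 4.6e-08) and 0.55 ± 0.09 in XX gonads (adjusted p = 2.4e-05). At E11.8 it was higher in XY than in XX gonads by 0.47 ± 0.09 (adjusted p = 2.9e-04). It was the only member higher in XY at that stage, as were 2.33% of all probes, and Rec8 was the only member lower, as were 1.52%. Within B6 the difference was 0.68 ± 0.13 (adjusted p = 5.1e-04) and within 129S1 0.26 ± 0.13 (adjusted p = 0.594), values that were not contrasted with each other. At E12.0 XY minus XX over both strains was 0.22 ± 0.10 and did not pass the test (adjusted p = 0.293). The sex term passed the test for Rec8 and Tex19.2, against 4.89% of all probes, and so did the sex by stage term (adjusted p = 7.3e-06 and 0.0224), against 2.68% of all probes. The latter passed for 1 of these genes alone without 129S1 XX E11.8 replicate 1 or B6 XY E11.8 replicate 1. The XX and XY rises, the step and the E11.8 difference passed in all 74 fits without 1 array.

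Ddx4, the germ cell RNA helicase also called vasa, is widely used as a germ cell marker. Its 3 probes stayed within 6.89 to 7.83 on all arrays. The second brightest of them rose in XX gonads by 0.35 ± 0.07 (adjusted p = 8.4e-04) and was 0.08 ± 0.07 in XY gonads (adjusted p = 0.700). Its values at E12.0 were 7.10, 7.48 and 7.83 in 129S1 XX and 7.54, 7.29 and 7.39 in B6 XX gonads, so that 4 of these 6 arrays passed the background level. Without 129S1 XX E12.0 replicate 1 this probe was also lower in XY than in XX gonads at E12.0 (-0.29, adjusted p = 0.00607), a difference of -0.20 that did not pass the test over all arrays. The other 2 probes changed by 0.02 and 0.03 in XX gonads, and the probes of the gene therefore disagree.

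Sycp3, a structural protein of the meiotic chromosome axis, and Stra8, the retinoic acid-induced gate to meiosis, showed no change from E11.0 to E12.0 that passed the test in either sex. Sycp3 differed by -0.05 in XX and -0.02 in XY gonads, and Stra8 by 0.09 and -0.03. Without 129S1 XX E12.0 replicate 1, Stra8 was lower in XY than in XX gonads of 129S1 at E12.0 (-0.46, adjusted p = 0.00969), a difference of -0.29 that did not pass the test over all arrays (adjusted p = 0.245). Sycp3 was lower in 129S1 at E12.0 (-0.20, adjusted p = 0.0482), where 1 of 11 values lay above background, and this was lost in 47 of the 74 fits without 1 array.

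**Figure D3:**
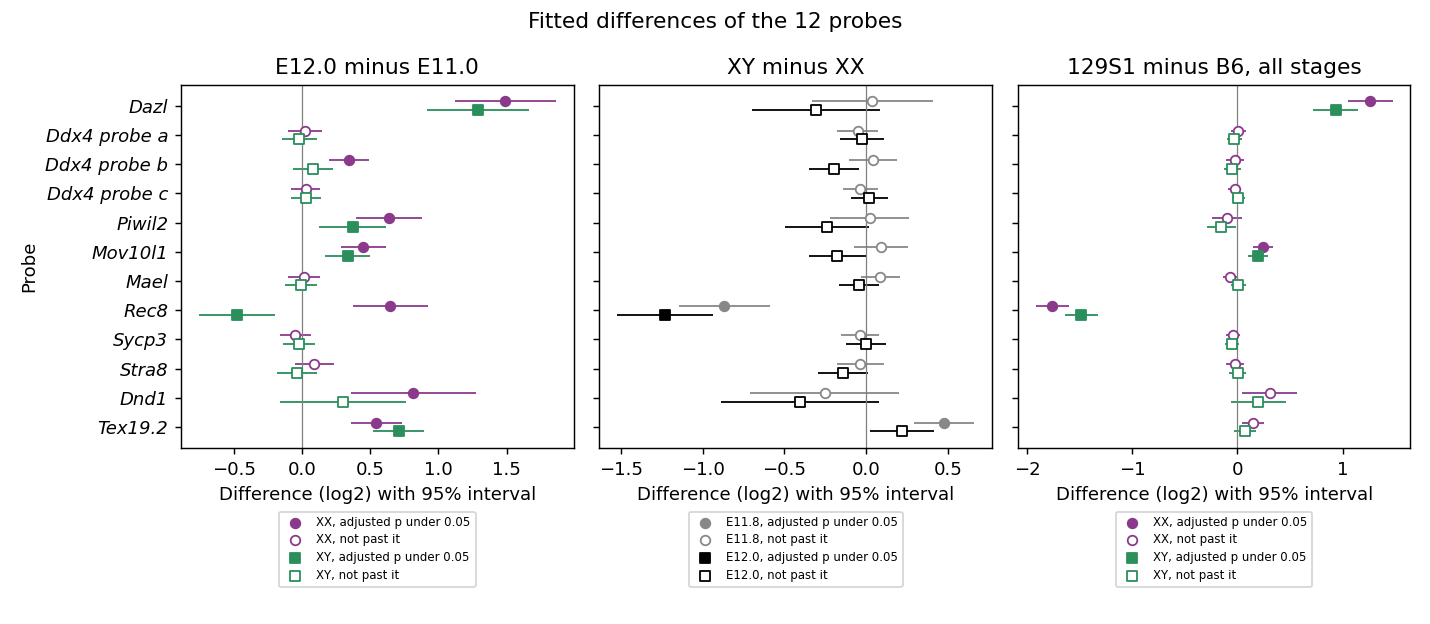
Fitted log2 differences of the 12 member probes with 95% intervals, for E12.0 minus E11.0 in each sex (left), XY minus XX at E11.8 and E12.0 (middle), and 129S1 minus B6 in each sex over all stages (right). Filled symbols passed an adjusted p of 0.05. Dazl has the largest rise, and Rec8 is the only probe with filled symbols on opposite sides of 0 in XX and XY gonads.

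The members were set beside wider lists of germ line genes. Of 14 measured germ line RNA-binding and chromatin factors other than the members, 5 rose in XX gonads and 4 rose and 1 fell in XY gonads, with medians of 0.23 and 0.08. Over all probes 2.78% rose in XX gonads, 3.42% rose in XY gonads and 4.11% fell there. Tex19.1, the sister gene of Tex19.2, rose by 1.28 ± 0.24 in XX and 0.91 ± 0.24 in XY gonads. Elavl2, a neuronal-type RNA-binding protein, rose by 0.82 and 0.72. Taf7l, a germ cell form of a general transcription factor subunit, fell by 0.82 on the log2 scale in XY gonads and was lower in XY than in XX gonads by 1.16 at E12.0 (-1.16, adjusted p = 7.7e-04).

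Of 13 piRNA pathway genes besides the members, 1 rose in XX and 2 in XY gonads, against 2.78% and 3.42% of all probes. Asz1, a mitochondrial scaffold for piRNA production, rose by 1.03 ± 0.19 and 1.08 ± 0.20. Of 24 other meiosis genes, 21 did not pass the test and 3 rose in each sex, against the same shares of all probes. The 3 that rose were the meiotic cohesin subunits Smc1b (0.88 in XX and 0.67 in XY) and Stag3 (0.67 and 0.64), and the recombination factor Mnd1 (0.39 and 0.62). Unlike Rec8, which belongs to the same complex as Smc1b and Stag3, these rose in both sexes, and both were higher in 129S1 (0.48 and 0.61).

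Against B6, 6 of the 14 germ line factors, 4 of the 13 piRNA genes and 5 of the 24 meiosis genes were higher in 129S1, and 1 piRNA gene was lower. Over all probes 7.85% were higher and 7.57% lower in 129S1. Elavl2 (0.95 ± 0.07) and Asz1 (0.69 ± 0.08) had the smallest p-values of their lists. Every gene of these lists was read at its brightest probe alone, so the limit given for Dazl applies to these strain values.

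The PGC reference list of 13 pluripotency and specification genes, none of them a member, served as a stand-in for germ cell RNA. How closely it follows the germ cell content of a gonad was not tested. Of the 13 genes, 4 rose in XX gonads, against 2.78% of all probes, among them Sall4 (1.12 ± 0.21) and Dppa3 (1.17 ± 0.26). In XY gonads 4 of the 13 rose, against 3.42% of all probes. In the strain comparison 7 of 13 were higher in 129S1, against 7.85% of all probes, and none lower, with a median of 0.35. At E12.0 none differed between the sexes. The mean of the list was 8.82 ± 0.21 (SD, n = 3) at E11.0 and 9.16 ± 0.21 at E12.0 in 129S1 XX gonads, and 8.47 ± 0.04 and 9.15 ± 0.48 in B6 XX gonads. In XY gonads it was 8.80 ± 0.20 (n = 5) and 9.41 ± 0.34 (n = 2) in 129S1, and 8.69 ± 0.35 and 8.85 ± 0.26 (n = 3 each) in B6.

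When the PGC reference mean of each array was added to the model, Dnd1 followed it most closely, with a slope of 1.55 ± 0.09 (adjusted p = 5.8e-19). Slopes also passed the test for Dazl (0.59), Piwil2 (0.55), Tex19.2 (0.33) and Mov10l1 (0.32), and not for Rec8 (0.24 ± 0.14, adjusted p = 0.290), while 7.75% of all probes had a slope that did. At a given PGC reference mean the Dnd1 change in XX gonads was 0.03 ± 0.10 (adjusted p = 0.923), against 0.82 without the term. The Dazl change was 1.19 ± 0.19 in XX and 1.06 ± 0.18 in XY gonads, against 1.49 and 1.29 without the term. The Rec8 changes were 0.53 ± 0.15 and -0.57 ± 0.15, against 0.65 and -0.47. Tex19.2 kept a rise of 0.38 ± 0.09 and 0.58 ± 0.09, whereas Piwil2 (0.16, adjusted p = 0.453) and Mov10l1 (0.22, adjusted p = 0.0757) no longer passed the test in XY gonads.

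With the term the strain differences were 0.92 ± 0.08 for Dazl, against 1.10 without it, and -1.69 ± 0.07 for Rec8, against -1.62. Those of Piwil2 (-0.29 ± 0.05, adjusted p = 5.6e-06) and Dnd1 (-0.22 ± 0.05, adjusted p = 4.7e-04) passed the test with the term, both lower in 129S1. Without it they were -0.13 (adjusted p = 0.077) and 0.25 (adjusted p = 0.056), so that for Dnd1 the sign turned, and each was called under some of the alternatives described at the end. Of the 13 genes in the reference mean, 7 were themselves higher in 129S1. A strain difference in binding to those probes, or to the single probes of Piwil2 and Dnd1, would move the adjusted values and was not tested. At E12.0 Dnd1 was also lower in XY than in XX gonads with the term (-0.36 ± 0.10, adjusted p = 0.0143), against -0.40 ± 0.24 without it.

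**Figure D4:**
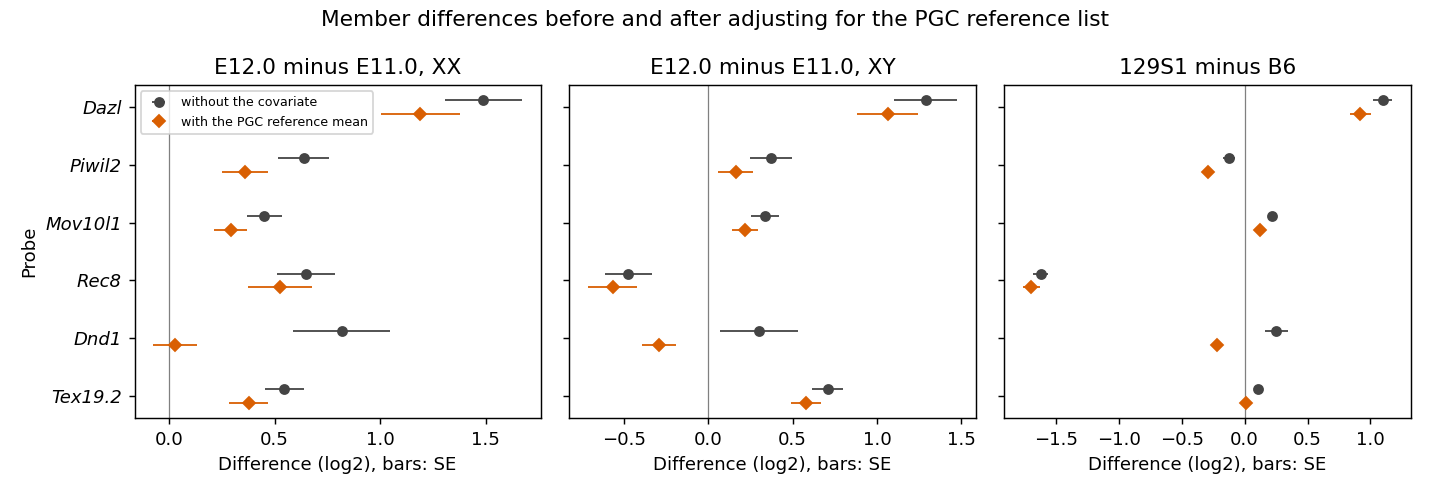
Log2 differences of the 6 members above background, with SE bars, without (circles) and with (diamonds) the PGC reference mean of each array as a covariate. The Dnd1 rise in XX gonads goes from 0.82 to 0.03. The Dazl differences shrink but keep most of their size, and the Rec8 differences move little.

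Other cell types moved with some of the same comparisons. Of the 9 supporting cell markers, 3 were higher and 3 lower in XY at E12.0, among them Dhh (3.82), Amh (2.38), Fst (-3.32) and Irx3 (-2.99), the stage at which Rec8 differed by sex. The mean of this list ran from 8.63 to 9.52 in 129S1 XX, 8.62 to 9.59 in 129S1 XY, 8.79 to 9.73 in B6 XX and 8.74 to 9.54 in B6 XY gonads. Of the 8 mesonephric tubule markers measured 4 were above background, the mean of the list ran from 7.18 to 7.73 on all arrays, and Lhx1 was higher in XY at E12.0 (0.61) and in 129S1 (0.69). Over all probes, 7.85% were higher and 7.57% lower in 129S1. Of 7 endothelial markers 5 were higher in 129S1, with a median of 0.17, as were 2 of 6 erythroid markers, led by Hbb-b2 (1.22). Of 7 macrophage markers 2 were higher and 3 lower in 129S1, and of 7 interstitial markers 1 was lower there. The part of these cells in the member differences was not tested.

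The probes whose group means were most like those of Dazl over the 24 groups were Tuba3a (Pearson's r = 0.98), Tex14 (0.97), Stag3 (0.96) and Smc1b (0.95), followed by Elavl2, Fbxo6, Tex19.1, Mov10l1, Gldc and Stk31 (0.93). The groups share their strains and stages, so r describes likeness of pattern only. The probes most like Rec8 were Lypd6 (0.98), Il15 (0.96) and Rapgefl1 (0.95), and Rec8 and Dazl were themselves at -0.62. Dnd1 was closest to Dppa4 (0.95), Klf5 (0.94) and Plcg2 (0.94), and Tex19.2 to Mybphl (0.95), Psat1 (0.93) and Rhox8 (0.93). The probes closest to Piwil2 were Ltbp3 (0.90), Zdhhc14 (0.89) and Tmem51 (0.89), and those closest to the Ddx4 probe that rose were Tdrp (0.83), Msh6 (0.81) and Gpcpd1 (0.81). Those closest to Mov10l1 were a second Tuba3a probe (0.94), Dazl (0.93) and Gldc (0.93). No pair of members was more alike than Dazl and Mov10l1.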

How the data were processed

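Total RNA of 74 pairs of gonads was hybridised to Illumina BeadChips. Per the labels and the study's methods, the authors read the arrays with GenomeStudio and deposited quantile-normalised log2 values made with beadarray under R 2.12.0. Quantile normalisation gives each array the same distribution, so that a change shared by most probes would not be seen. All 25697 probes were fitted here with limma 3.58.1 in R 4.3.3 (lmFit and eBayes on 24 group means), with Benjamini-Hochberg adjustment over all probes and a threshold of 0.05. No filter was applied, since a filter on the brightest group favours probes that differ. Probe names came from the platform annotation, and 1719 probes had no symbol. The members and lists were chosen with earlier results of these data known. Every member probe was named, up to 4 genes per list and comparison by smallest adjusted p, and the most similar probes by Pearson's r. On simulated data for the change in XX gonads with 25697 probes, log2 changes of 0.5 were called in 86% and of 1 in 99% of 100 probes each. These probes were drawn at random from all 25697, including those below background, so the shares need not hold for members with a wider spread. Alternatives were 2 filters on low values, array weights, a trended robust prior, centring, a replicate block, a linear trend and leaving out each array. Unnormalised intensities were not used here, because their columns could not be tied to samples. Tables were handled with pandas 2.3.3 and figures drawn with matplotlib 3.10.9.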

Additional observations from a re-analysis of the deposited data

Results flagged for a closer look

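Rec8 changed differently in the 2 sexes between E11.0 and E12.0. The change in XY minus that in XX gonads was -1.12 over both strains and -1.55 within B6, both past the threshold of the limma test of the difference itself.

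In the 5 arrays of 129S1 XY E11.0, 2 values stood apart from the rest of their group. The lowest Ddx4 value on the second brightest probe was 6.96, and the highest Rec8 value was 8.0. Such flags are raised by chance in about 1 group in 20, and 24 combinations of group and probe were examined.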

How the results depend on the processing

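No result reversed its direction under any alternative. The linear trend over the stages raised the number of members whose change differed by sex from 1 to 2 (Tex19.2 joined Rec8, 0.38, adjusted p = 0.0322) and of all probes from 640 to 1066. It raised the number that differed by strain from 0 to 1 (Dazl) and of all probes from 30 to 88. The labels do not say that a replicate number marks a shared litter or day. Deviations of arrays with the same number correlated at 0.09 on average (-0.65 to 0.74) and those with different numbers at -0.04, and 40 of 71 arrays were closest on average to arrays of their own number, so the numbers were not taken as pairs. With the replicate block the strain difference of the change passed the test for 1 member (Dazl, 1.16, adjusted p = 0.0141) and for 28 probes, and no other call of a member changed. Dnd1 passed the strain test under both filters and with array weights (adjusted p 0.0266 to 0.0413), and Piwil2 under the filter on the mean level (adjusted p = 0.0492). The Piwil2 rise in XY gonads was lost with array weights. Leaving out single arrays gave 5 to 6 members for the change in XX gonads, 3 to 5 in XY gonads, 3 to 5 for strain, 0 to 1 for the strain difference of the change and 1 to 2 for the sex by stage term. The corresponding probe count for the strain difference of the change was 12 to 34. The 4 arrays without which only 3 members changed in XY gonads were both of 129S1 XY E12.0, B6 XY E11.0 replicate 1 and B6 XY E12.0 replicate 3. Probes below background limit what can be said of Ddx4, Mael, Sycp3 and Stra8.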
